A study of Mus musculus with 474 samples.

Results

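Named pseudogenes are rows of the mouse gene table whose symbol is that of another gene followed by -ps and often a number. All 220 such rows were taken by symbol, with 1 symbol of the same form left out beforehand, from the 20612 genes measured in skeletal muscle. The symbol before -ps names the parent gene, and 173 of the 220 had their parent among the measured genes, which made 105 parents in all. The other 47 had no measured parent under that symbol. By their GENCODE M21 type, 164 of the 220 were processed pseudogenes and 9 were listed as protein-coding, so the label is that of the symbol and not of a uniform annotation. Pseudogenes of ribosomal protein genes made up 102 of the 220.

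Processed pseudogenes arise when a messenger RNA is copied back into DNA and inserted elsewhere in the genome, so that they lack the introns and the promoter of their parent. Most are silent, and some are transcribed from the site where they landed. Ribosomal protein genes, whose messages are short and abundant, have left many such copies. Because a young copy can match its parent base for base, a short sequencing read can often be placed on either of them, and the share given to each depends on how the counting treats reads with several matches.

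The animals were adult Diversity Outbred mice, an outbred stock in which each animal carries its own mixture of the genomes of 8 inbred founder strains, and all of them ate a high-fat, high-sugar diet. Each gave 1 library of polyadenylated RNA from skeletal muscle. Libraries were labelled female or male, in generations 17 (48 female, 46 male), 18 (45 and 48), 19 (49 and 50), 21 (46 and 47) and 23 (47 and 48), where the generation is the number in the library title. The titles do not call it a generation and the methods of the study do not list all of these numbers, so that this reading is uncertain. No group carried a transgene or an engineered allele, and there was no untreated or control-diet group. Total counts ran from 35.9 to 165.7 M with a median of 79.3 M (M for mega), and the 220 pseudogenes held between 0.109% and 0.237% of them. The muscle fibre markers were present in every library. In 5 libraries the counts of Xist and Y-linked genes went against the labelled sex, and the counts of gaps, correlations and calls for sex, generation and their interaction are given without them in the closing section.

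The values are expected counts, in which the authors' method divides a read between the places it fits. Of the values of the 220 pseudogenes 30.0% were whole numbers, against 68.6% over all genes. Values within a very small tolerance of a whole number were counted as whole. Of the 173 pairs, 20 pseudogenes matched a transcript of their parent in every stretch of 100 bases, and for these the reference alone gives no read that tells the copies apart. Separate values of near-identical copies are therefore uncertain throughout. A further limit is that 71 of the 220 overlapped another gene, and no use of strand is stated.

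The sequences below are stretches of 100 bases, from GENCODE M21 on GRCm38, of 7 pseudogenes on which the results turn, each beside the matching part of the coding sequence of its parent, read 5′ to 3′ on the strand of the gene. Each is the stretch with the most differences within an ungapped alignment to the parent's coding sequence. It shows how close the sequences are there, and not how many bases differ over the whole transcript. Capitals mark bases that differ within a pair. A difference is written as the parent's base, its position counted from 1 at the start of the stretch, and the pseudogene's base.

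Rpl9-ps6 (chr19:32466237-32466336, minus strand) differed from bases 216 to 315 of the Rpl9 coding sequence by G51A. Both sequences were as follows.
Rpl9-ps6: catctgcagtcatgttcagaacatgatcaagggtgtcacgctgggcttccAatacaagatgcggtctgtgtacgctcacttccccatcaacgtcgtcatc
Rpl9: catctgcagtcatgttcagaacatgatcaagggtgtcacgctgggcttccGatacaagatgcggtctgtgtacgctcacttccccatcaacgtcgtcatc

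Rpl19-ps11 (chr8:19493076-19493175, plus strand) differed from bases 141 to 240 of the Rpl19 coding sequence by G51A.
Rpl19-ps11: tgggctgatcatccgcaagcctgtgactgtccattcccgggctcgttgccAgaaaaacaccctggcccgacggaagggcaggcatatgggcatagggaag
Rpl19: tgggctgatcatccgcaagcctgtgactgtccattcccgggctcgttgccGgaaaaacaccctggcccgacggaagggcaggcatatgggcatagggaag

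Rpl39-ps (chr15:102635084-102635183, plus strand) differed from bases 46 to 145 of the Rpl39 coding sequence by T51C.
Rpl39-ps: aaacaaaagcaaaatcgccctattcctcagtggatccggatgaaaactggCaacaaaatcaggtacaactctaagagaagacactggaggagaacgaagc
Rpl39: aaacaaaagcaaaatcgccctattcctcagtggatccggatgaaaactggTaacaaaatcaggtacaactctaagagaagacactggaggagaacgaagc

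Rps25-ps1 (chr6:145266522-145266621, plus strand) differed from the matching bases of the Rps25 coding sequence by G37A and C66T.
Rps25-ps1: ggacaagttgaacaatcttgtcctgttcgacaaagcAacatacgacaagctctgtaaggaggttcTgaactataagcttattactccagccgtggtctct
Rps25: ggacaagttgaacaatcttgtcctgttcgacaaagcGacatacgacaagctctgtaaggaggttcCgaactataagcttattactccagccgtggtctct

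Fabp3-ps1 (chr10:86732025-86732124, minus strand) differed from the matching bases of the Fabp3 coding sequence by C33T and G70A.
Fabp3-ps1: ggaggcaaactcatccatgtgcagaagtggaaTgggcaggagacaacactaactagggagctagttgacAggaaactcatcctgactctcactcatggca
Fabp3: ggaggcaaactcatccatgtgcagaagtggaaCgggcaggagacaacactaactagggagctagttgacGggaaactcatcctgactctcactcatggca

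Rps15-ps2 (chr6:58017654-58017753, plus strand) differed from the matching bases of the Rps15 coding sequence by A11G, G39A, A44G, A53G, T71C and G86A, the largest number among the 7.
Rps15-ps2: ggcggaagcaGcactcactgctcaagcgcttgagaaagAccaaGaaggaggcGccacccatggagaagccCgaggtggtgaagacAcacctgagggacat
Rps15: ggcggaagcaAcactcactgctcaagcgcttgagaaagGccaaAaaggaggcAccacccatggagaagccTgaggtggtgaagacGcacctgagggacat

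Rps16-ps2 (chr5:129128418-129128517, minus strand) was identical to bases 1 to 100 of the Rps16 coding sequence, and the stretch is therefore printed for the pseudogene alone.
Rps16-ps2: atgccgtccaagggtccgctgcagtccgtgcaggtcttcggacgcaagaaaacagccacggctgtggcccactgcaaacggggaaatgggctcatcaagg

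Most of the pseudogenes were barely detected and a small group was abundant. The median over animals was below 1 CPM, the count of a gene scaled to a library of standard size, for 167 of the 220, between 1 and 10 CPM for 27, and at least 10 CPM for 26. The highest was Tpt1-ps3, a copy of the gene of the translationally controlled tumour protein on chromosome 6, which ran from 245.95 CPM through a median of 361.996 to 506.4 and matched its parent in every stretch of 100 bases. Rpl10-ps3, a copy of the large-subunit gene Rpl10 on chromosome 9 and listed as protein-coding, ran from 104 through 150.1 to 215 CPM. These 2 were present at a similar level in every animal.

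The next 4 in level were copies of ribosomal protein genes and varied far more. Rps23-ps1 ran from 22.3 through 88.7 to 132 CPM. Rpl19-ps11 lay under 1 count in 2 animals, with a median of 68.6 CPM and a highest value of 160.2 CPM. Rpl27-ps3 had a median of 59.8 CPM and a highest value of 96.9 CPM, with 11 animals under 1 count. Rpl31-ps8 had a median of 58.7 CPM and a highest value of 87.5 CPM, with 3 animals under 1 count. Scaled to exonic length, the medians of these 6 were 697.5 CPM per kilobase for Tpt1-ps3, 209 for Rps23-ps1, 195 for Rpl10-ps3, 155 for Rpl31-ps8, 145 for Rpl27-ps3 and 116 for Rpl19-ps11.

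Spread between animals was measured as the SD of the variance-stabilised score (VST, a scale close to log2) deposited by the authors. The median SD over the 220 was 0.22 and that over all genes 0.20. On log2 CPM with a prior count of 2, a scale that spreads low counts more, the medians were 0.906 and 0.452. The upper end of the VST scale differed further. An SD of at least 1 was seen in 33 of the 220 (15%), against 1.07% of all genes, 7.04% of the other rows with a pseudogene type, 4.76% of the 105 parents and 0.595% of protein-coding genes. The 6 largest were Rps2-ps13 (3.15), Rpl9-ps6 (2.98), Rpsa-ps10 (2.78), Rpl19-ps11 (2.72), Rps25-ps1 (2.61) and Fabp3-ps1 (2.55), with ranks between 9 and 28 among the 20612 genes.

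**Figure D1:**
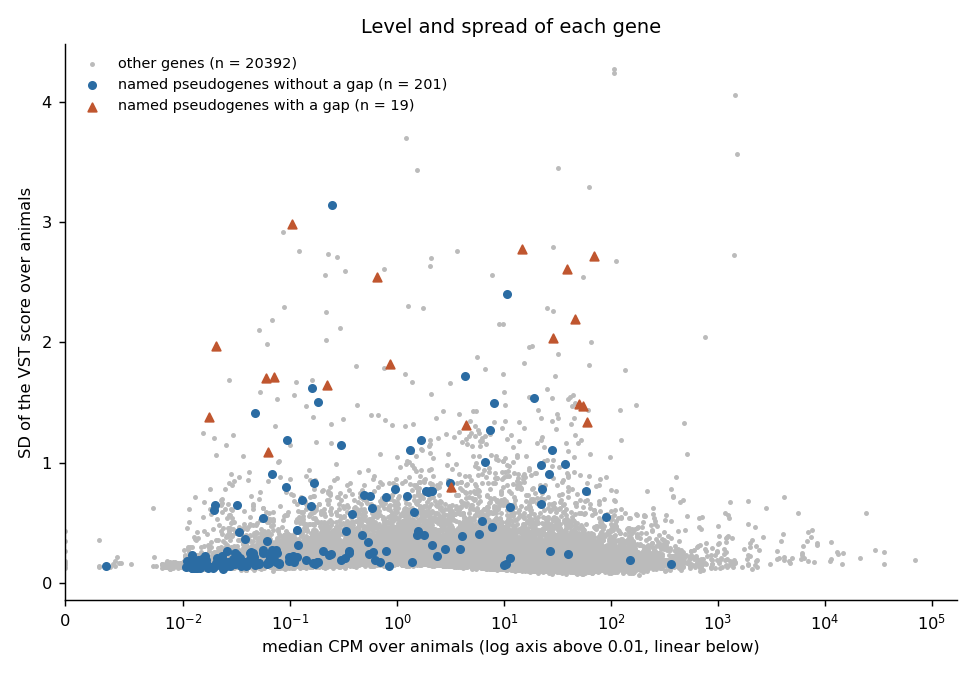
Each point is a gene, with its median CPM over all animals on the x axis (log above 0.01, linear below) and the SD of its VST score on the y axis; grey points are other genes, blue circles named pseudogenes without a gap and orange triangles the 19 with one. The median SD is 0.22 for the named pseudogenes and 0.20 for all genes, and the upper quartiles are 0.64 and 0.27. At 1 or above lie 33 of the named pseudogenes.

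Rps2-ps13, a copy on the X chromosome of the small-subunit gene Rps2, ran from under 1 count through a median of 0.244 CPM to 450.2 CPM. Fabp3-ps1, a copy of the gene of heart-type fatty acid-binding protein, ran from 0.054 through 0.639 to 534.5 CPM, the highest single value among all 220. Rpl9-ps6 had a median of 0.103 CPM and a highest value of 171 CPM, and 196 animals lay under 1 count. In all 3 most animals were close to 0 while a minority held far higher values. For each of the 6 the biological coefficient of variation of edgeR was between 1.52 and 3.43, where the value fitted for genes of the same level was close to 0.26.

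Sex, generation and the order of the library numbers explained little of this spread. Over the 220 the median share of the VST variance was 0.299% for sex, 0.848% for generation and 1.07% for the block of library numbers, against 1.17%, 0.962% and 1.56% over all genes.

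In 19 of the 220 (8.64%) the animals fell into separate sets. These gaps were read from the ordered VST scores as a step of at least 0.5 between neighbouring animals with 24 or more animals on each side and a median count of at least 10 above it. The same was seen in 0.611% of all genes, 4.46% of the other rows with a pseudogene type, 2.86% of the parents and 0.262% of protein-coding genes. Of the 19, 14 were copies of ribosomal protein genes and 18 had the type processed pseudogene. Gaps were counted and not tested.

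Rpl9-ps6 had the widest step, 3.48 VST units, with 125 animals at or above 28.3 CPM and all others at or below 1.18 CPM. Rps25-ps1, a copy of a small-subunit gene, had a step of 3.32, with 214 animals up to 1.45 CPM and 260 from 28.7 to 75.8 CPM. Rps15-ps2 had a step of 2.998, with 163 animals from 10.5 to 33.3 CPM and all others up to 0.249 CPM. In these 3 no animal held an intermediate value. Rpl19-ps11 (step 2.65) had 310 animals above 51.8 CPM and 164 below 6.75. Rpl23a-ps3 (step 2.31) had 68 animals from 24.5 to 41.7 CPM and the others at or below 4.06. Fabp3-ps1 (step 1.97) had 89 animals from 17.3 CPM upward and the others at or below 3.09.

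**Figure D2:**
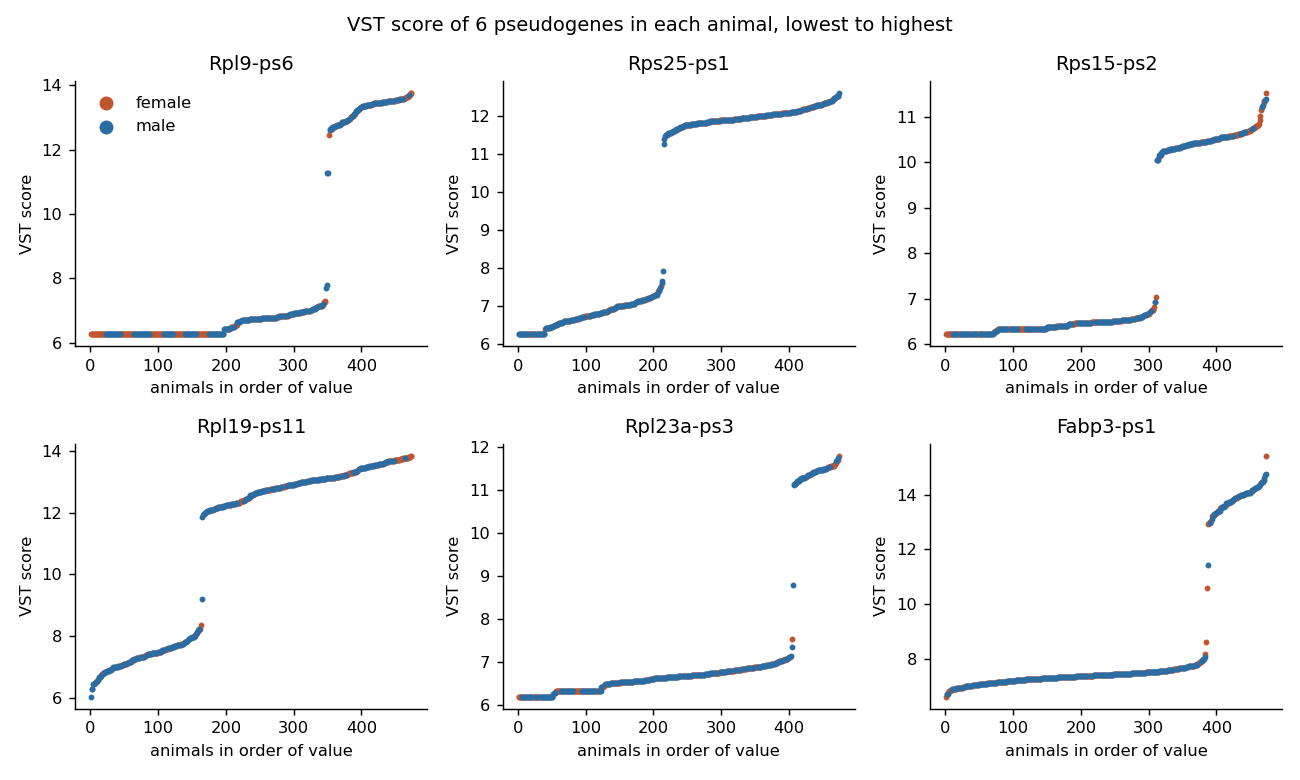
Each panel orders all animals by the VST score of 1 pseudogene, with the rank of the animal on the x axis and the score on the y axis, females in orange and males in blue. Each of the 6 members with the widest steps shows a break, from 3.48 units in Rpl9-ps6 to 1.97 in Fabp3-ps1, and both sexes lie on both sides of it.

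The remaining 13 followed the same form with other shares of animals above the step. Few animals were high in Rpl17-ps5 (61 above a step of 1.64), Rps15a-ps7 (64 above 1.38) and Gstp-ps (84 above 0.65), the last a glutathione S-transferase copy without a measured parent of its name. Rpl39-ps had 120 above a step of 0.79, Pdcd5-ps, a copy of a programmed cell death gene, 182 above 1.96, and Rpsa-ps10 48.9% of animals above 0.54. Most animals were high in Rps16-ps2 (60.8% above a step of 1.35), Rpl15-ps3 (76.6% above 1.51), Tma7-ps (80.8% above 0.76), Llph-ps2 (88.8% above 0.66), Rpl10a-ps1 (90.9% above 1.16), Rpl28-ps1 (92.0% above 1.89) and Rpl27-ps3 (94.3% above 1.55). The widest step that fell short of the limit was that of Rps2-ps13, at 0.47, close to the 0.54 of Rpsa-ps10 just inside it.

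The animals above the steps were spread over the labels. Females made up between 39.1% and 51.7% of them across the 19, where 49.6% of all animals were female. Sex explained at most 1.16% of the variance of any of the 19, generation between 0.236% and 3.26%, and the library block between 0.249% and 1.73%. Of the 19, 6 overlapped another gene, among them Fabp3-ps1 with Ttc41 and Rps16-ps2 with Adgrd1, both on the opposite strand.

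Where Rpl9-ps6 or Rpl19-ps11 was high, its parent was lower. Among the animals below the step of Rpl9-ps6, the large-subunit gene Rpl9 lay between 88.6 and 200.3 CPM. The 125 animals with it fell apart again by the level of Rpl9 itself. In 42 of them Rpl9 was between 48.2 and 107 CPM and Rpl9-ps6 between 28.3 and 130.4, and in 83 Rpl9 was between 1.92 and 5.85 CPM and Rpl9-ps6 between 75.5 and 171. The animals thus lay in 3 separate places on the plot of one gene against the other.

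Rpl19-ps11 and Rpl19 showed the same arrangement. The 164 animals below the step held between 99.1 and 196 CPM of Rpl19. In 127 of the others Rpl19 was between 50.2 and 90.3 CPM with Rpl19-ps11 between 51.8 and 87.9, and in 183 Rpl19 was between 2.40 and 10.7 CPM with Rpl19-ps11 between 88.7 and 160.2. In the last set nearly all counts of the pair were given to the pseudogene, whose share of the pair reached 98.0%. The parent's own step was 2.71 VST units in the first of these pairs and 1.88 in the second.

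Rpl27 and its copy differed from these in that the pseudogene was the usual holder of the counts. Rpl27-ps3 held a median of 92.4% of the pair, and Rpl27 ran from 1.62 through 5.75 to 86.9 CPM. The 27 animals below the step of Rpl27-ps3 were those with Rpl27 between 54.0 and 86.9 CPM. Rpl27-ps3 matched Rpl27 in every stretch of 100 bases.

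**Figure D3:**
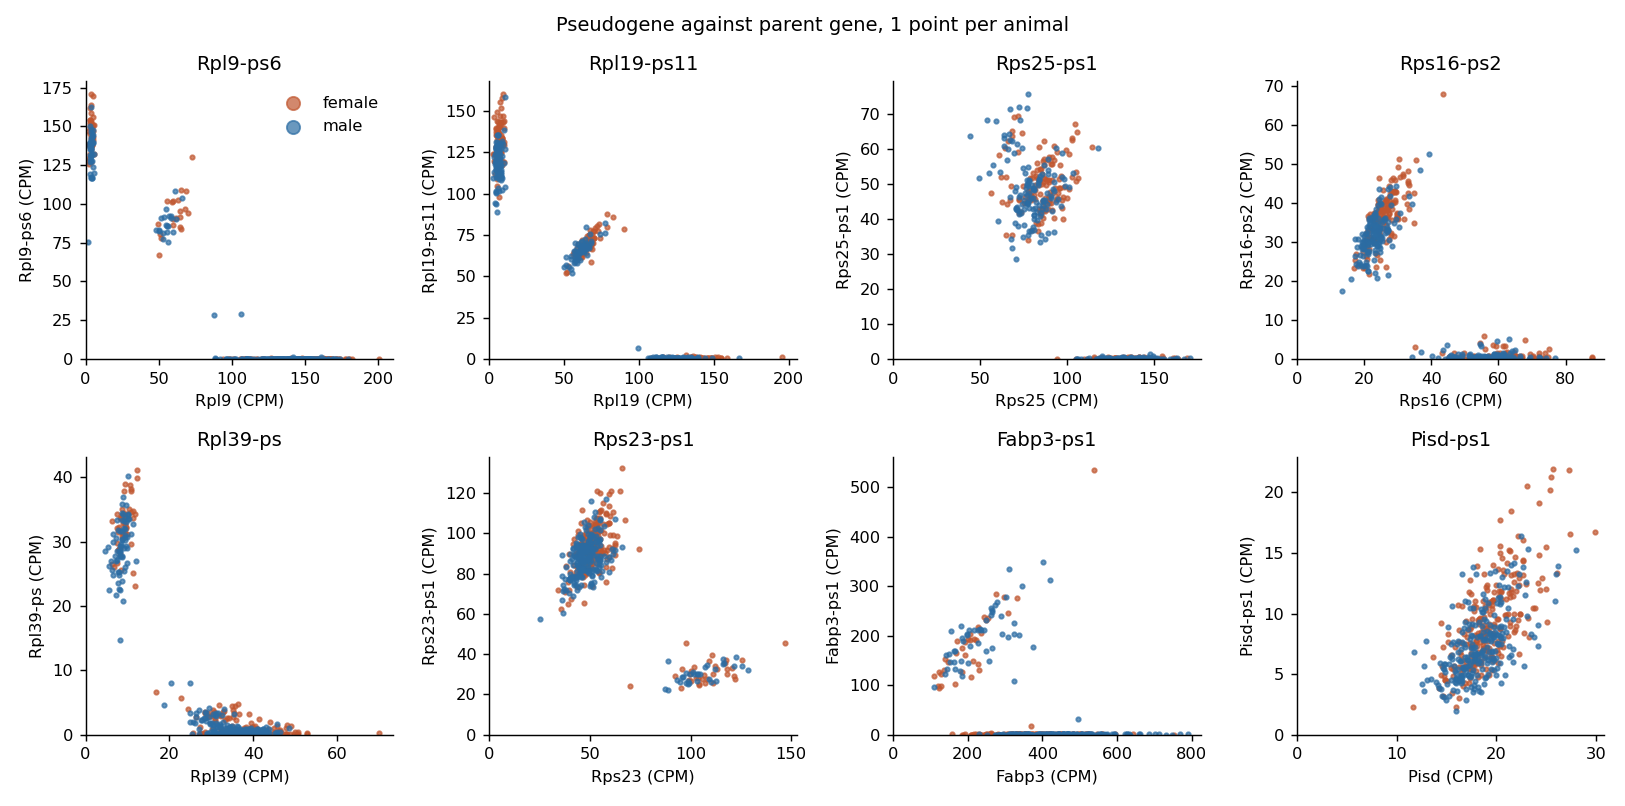
Each point is an animal, with the CPM of the parent on the x axis and that of its pseudogene on the y axis on linear axes from 0, females in orange and males in blue. In Rpl9-ps6 and Rpl19-ps11 the animals lie in 3 separate places, in Rps23-ps1 in 2 clouds that each slope upward, and in Pisd-ps1 in 1 cloud that slopes upward.

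For a minority of parents the sum with the pseudogenes varied much less than the parent alone. Over all 105 the median ratio of the SD in sum to the SD alone was 0.978. For Rpl19 the SD of log2 CPM over animals was 2.00 alone and 0.14 after the counts of Rpl19-ps11 were added, and the summed level ran from 93.6 through 131 to 197 CPM. For Rpl9 it was 1.98 alone and 0.20 in sum, for Rpl27 1.44 and 0.24, for Rps16 0.64 and 0.23, and for Rps25 0.40 and 0.15. Mrpl23, a gene of the mitochondrial ribosome whose copy had no step of the size above, went from 1.62 to 0.24. Of all 105 parents the SD of the sum was under 0.9 of that of the parent in 37 and under 0.5 in 14, and it was above it in 17.

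All 18 parents of pseudogenes with a gap had a lower SD in sum, with a median of 0.44 alone and 0.20 in sum, where the median over the 105 sums was 0.20. The fall was not of the same size in each. Rpl23a went from 0.57 only to 0.55 and Rpl17 from 1.39 to 1.25 with all 4 of its copies added, so the spread of these parents was not taken up by their named pseudogenes. Fabp3 went from 0.52 to 0.40, and the sum of Fabp3 and Fabp3-ps1 still ran from 158 through 395.3 to 1074 CPM. These sums are a description, because a sum also varies less than its parts when reads are moved between them.

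**Figure D4:**
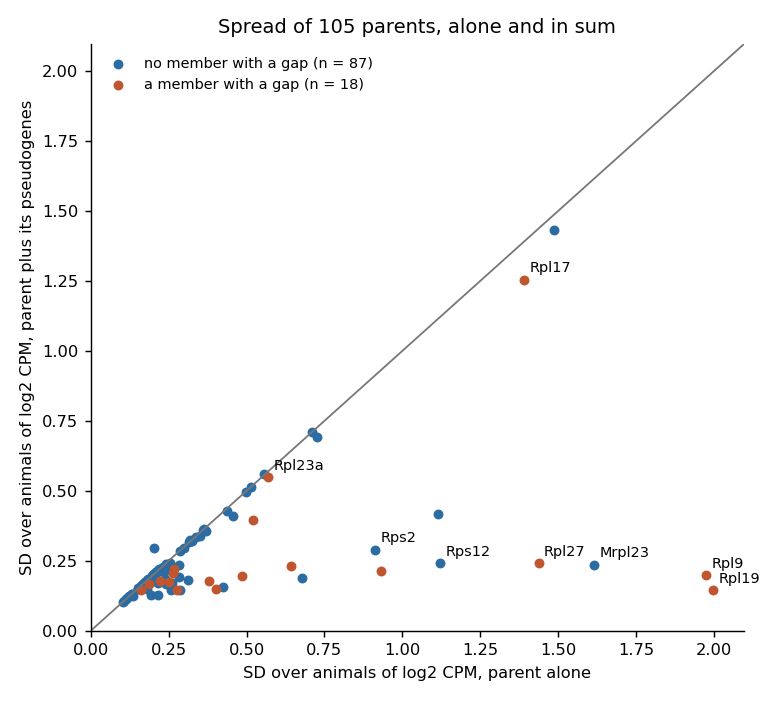
Each point is 1 of the 105 parents, with the SD of its log2 CPM over animals on the x axis and the SD after the counts of its named pseudogenes were added on the y axis; orange points have a pseudogene with a gap, and the line marks equal values. Rpl19, Rpl9, Mrpl23 and Rpl27 lie far below the line at sums of 0.14 to 0.24, and Rpl17 and Rpl23a lie near it.

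Correlation with the parent was measured over animals on the VST score for the 155 pairs whose pseudogene had no gap. It was negative in 32 and positive in 36 and missed the threshold in 87, by a permutation test of Pearson r with 100000 resamples and Benjamini-Hochberg adjustment over the 155 pairs. By Spearman rho 27 were negative and 42 positive. In 13 of the 155 the animals still fell into sets, by a step of at least 0.25 in the pseudogene or in the parent. The parent's step was 2.71 for Rpl9-ps7 and 0.55 for Rpl17-ps4, Rpl17-ps9 and Rpl17-ps10, past the limit set for a gap. Without the 13, 25 of 142 were negative and 35 positive.

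The sign of the called pairs went with how much sequence the pair shared. Among the 142 pairs, the pseudogenes with at least 50% of their 100-base stretches in the parent were negative in 17 of 36 and positive in 7, with a median r of -0.08. The 17 include 4 copies of Rpl35a that are described below as 1 group. By rho 15 were negative and 9 positive, with a median of -0.0032. Those that shared less were negative in 8 of 106 and positive in 28, with a median r of 0.06, and by rho in 6 and 30. Sharing also went with level. Over the 155 pairs the median pseudogene level was 15.1 CPM at shares of 100% and 0.36 CPM at 50% to under 100%. At shares above 0 and under 50% it was 0.042 CPM, and at 0 it was 0.034 CPM. Sharing and level therefore cannot be told apart here. The relation of sign and sharing is across pairs, which share parents and libraries, and was not tested.

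**Figure D5:**
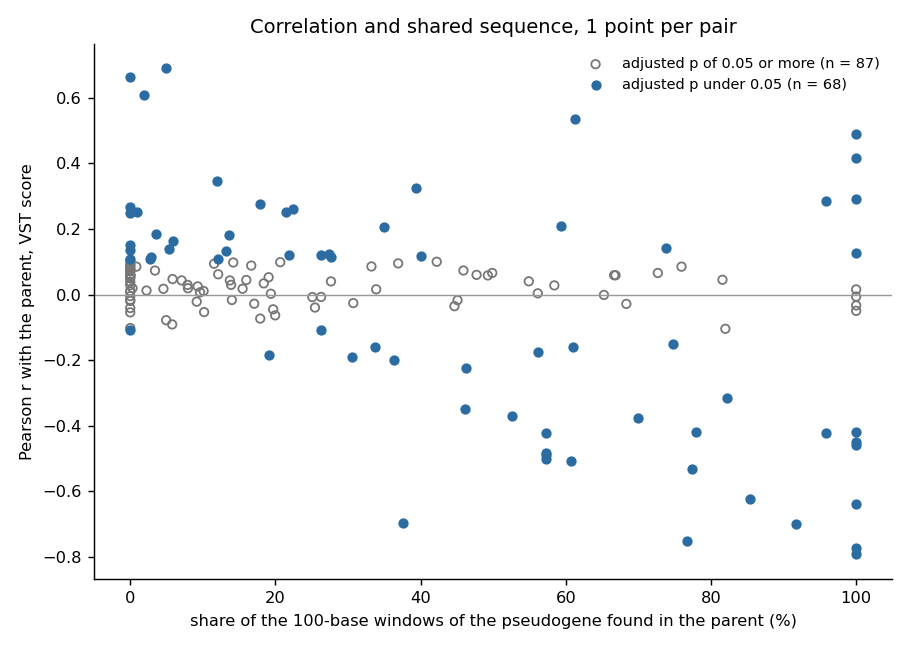
Each point is 1 of the 155 pairs whose pseudogene had no gap, with the share of the 100-base stretches of the pseudogene that occur in the parent on the x axis (%) and Pearson r over all animals on the y axis; filled points passed the test, and 13 of the pairs have a step in the pseudogene or its parent. Without those 13, the filled negative points lie mostly to the right (17 of 25 at shares of at least 50%), and the 3 highest, of Ifi203-ps, Pisd-ps1 and Pisd-ps2, lie at shares under 5%.

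Over all animals, the 3 highest r among the pairs without a step belonged to pseudogenes that shared little sequence with their parents. Ifi203-ps, a copy of an interferon-inducible gene, ran from 0.227 through 1.54 to 5.62 CPM and had r = 0.69 and rho = 0.68 with Ifi203. Pisd-ps1 and Pisd-ps2 are unprocessed copies of the gene of phosphatidylserine decarboxylase, which makes phosphatidylethanolamine in mitochondria. Pisd-ps1 ran from 1.99 through 7.75 to 21.9 CPM with r = 0.66 and rho = 0.65, and Pisd-ps2 from 0.668 through 2.10 to 8.15 CPM with r = 0.61 and rho = 0.59. These 3 shared between 0% and 4.92% of their stretches with the parent.

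Rpl30-ps10 had r = 0.53 and rho = 0.48 with Rpl30, at a median of only 0.020 CPM, and Tpt1-ps3 had r = 0.49 and rho = 0.52 with Tpt1. Rpl30-ps10 shared 61.3% of its stretches with Rpl30. Tpt1-ps3 shared all of them with Tpt1, so that the reference alone does not tell its reads from those of the parent. Blocks of library numbers explained 16.96% of the variance of Tpt1-ps3, and after sex, generation and these blocks were regressed out its r was 0.45. For these 5 pairs each permutation p was 1e-05, the smallest that the resamples can give, and the adjusted p was 3.87e-05 for r and 4.31e-05 for rho. Without the 2 animals farthest from the median of the parent, r was 0.70, 0.67, 0.60, 0.54 and 0.49 in the order named. Within the 5 library blocks, r ran from 0.60 to 0.74 for Ifi203-ps, 0.63 to 0.68 for Pisd-ps1, 0.56 to 0.68 for Pisd-ps2, 0.43 to 0.69 for Rpl30-ps10 and 0.35 to 0.75 for Tpt1-ps3.

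Among pairs without a step the lowest Pearson r was that of Rps13-ps1, a copy of the small-subunit gene Rps13, with r = -0.75 and rho = -0.56. By rho Kansl2-ps (-0.66) and Rpl14-ps1 (-0.58) were lower. Its permutation p was 1e-05 for both and its adjusted p 3.87e-05 and 4.31e-05. It had a median of 4.25 CPM and a highest value of 87.4 CPM. Without the 2 farthest animals r was -0.75, and within blocks it ran from -0.90 to -0.37. Rps13-ps2, the other abundant copy of the same parent, had a step of 0.29, and among the 94.7% of animals above it r with Rps13 was 0.51 and rho 0.46. The same parent thus had a copy that was low where it was high and a copy that rose with it.

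For pairs with such a step in the pseudogene or its parent, r is given within each set of animals and not over all of them. Rps23-ps1 had a step of 0.36. In the 65 animals below it Rps23-ps1 was between 22.3 and 45.6 CPM and Rps23 between 70.0 and 147, and in the others Rps23-ps1 was between 57.3 and 132 CPM and Rps23 between 25.1 and 74.3. Across the step the gene pair moved in opposite directions, and within each set they rose together, with r = 0.55 and rho = 0.55 below and r = 0.63 and rho = 0.58 above (adjusted permutation p = 2.7e-05 for both r, over 27 relations). Rps6-ps4, with a step of 0.39, had r = -0.58 and rho = -0.59 in the 53.4% of animals above it and r = 0.10 and rho = 0.12 below. Mrpl23-ps1 had a step of 0.37 and its parent one of 0.45. Below the parent's step r was 0.27 and rho 0.20. Above the pseudogene's own step r was -0.61 and above the parent's -0.77, with rho -0.51 and -0.07, but each of these sets still holds the other gene's step. Below the pseudogene's own step, in 27 animals, r was 0.23 and missed the threshold (adjusted permutation p = 0.376). Among the pairs with a gap, Rps16-ps2 had r = 0.73 and rho = 0.71 in the 60.8% of animals above its step, while the relation in the 186 below missed the threshold (adjusted permutation p = 0.955).

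Within their sets the 18 gapped pairs had no common sign. Of 36 relations, Rps16-ps2 included, 5 were set aside because the parent had a further step, and of the other 31 the test of r called 8 negative and 5 positive and that of rho 6 negative and 6 positive. Rpl23a-ps3 had r = 0.63 and rho = 0.65 in the 68 animals above its step, and the relation below it missed the threshold. Rpl39-ps had r = 0.42 and rho = 0.50 in the 120 animals above its step and r = -0.46 and rho = -0.32 in those below, so that the sign turned within 1 pair. Fabp3-ps1 had r = 0.33 and rho = 0.64 in the 89 animals above and r = 0.20 and rho = 0.25 in those below. Tma7-ps had r = -0.49 and rho = -0.33 above its step and missed the threshold below it. The adjusted p of r by permutation, over 36 relations, was 0.00409 above and 0.00039 below for Fabp3-ps1 and 4e-05 for the called values of Rpl23a-ps3, Rpl39-ps and Tma7-ps.

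Copies of 1 parent rarely varied alike. Over 144 pairs of pseudogenes with a common parent the median r was 0.01, and 7 had r of at least 0.5. Of these, 6 were the pairs among Rpl35a-ps2, Rpl35a-ps3, Rpl35a-ps4 and Rpl35a-ps6, on chromosomes 1, 17, 2 and 5, with r between 0.86 and 0.95. Each of these 4 matched another measured gene in every stretch of 100 bases, and their medians were 1.85, 2.02, 1.94 and 2.12 CPM. Their values are those of 1 group of copies and not of 4 separate genes.

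The genes most alike to the pseudogenes with a gap were then read off, by the absolute Pearson r of VST residuals after sex and generation over all animals against every gene. For the 19 and Rps2-ps13 together the 3 most alike genes were taken, and r serves here only to rank them. Because the animals lie in separate sets, it is no measure of a graded relation. The parent came first for 14 of the 19 with a gap, with r from -0.94 for Rpl39-ps to -0.48 for Rps15a-ps7. For Rpl28-ps1 the first was Gm10051, a processed pseudogene on chromosome 5, at r = -0.92, ahead of Rpl28 at -0.50.

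The other genes on these lists lay near the pseudogene or near its parent. Of 44, 19 were on the chromosome of the pseudogene, all within 5.09 Mb of it, and 18 were on the chromosome of the parent (for Gstp-ps, of Gstp2, the gene with which it shares most sequence), all within 3.76 Mb of that gene. The other 7 were on neither. This count was made after the lists had been seen, and neighbouring genes in this stock are inherited together.

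The lists of 8 pseudogenes held neighbours of the pseudogene alone. They were Fabp3-ps1 (Fhl4 at 1.64 Mb), Pdcd5-ps, Rpl9-ps6 (2700046G09Rik at 0.0766 Mb), Rpl17-ps5, Rpl19-ps11, Rpl39-ps (Smug1 at 0.518 Mb), Rps16-ps2 and Rps25-ps1 (Casc1 at 0.0916 Mb). The lists of 7 held neighbours of the parent alone. They were Gstp-ps, Llph-ps2 (Helb at 0.143 Mb from Llph), Rpl10a-ps1, Rpl27-ps3 (Cntnap1 at 0.272 Mb from Rpl27), Rps15-ps2, Rps15a-ps7 and Rps2-ps13 (Syngr3 at 0.0330 Mb from Rps2). For Rpl23a-ps3 the gene most alike was Sdf2, 0.0648 Mb from Rpl23a, at r = -0.70.

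The sex comparison asks which pseudogenes differed between male and female muscle, and it was made with edgeR's quasi-likelihood test with generation as covariate, Benjamini-Hochberg adjustment over 18823 genes and a threshold of 0.05. Of the 220, 156 passed the filter on low counts. Among them 38 (24.4%) were called, 30 lower and 8 higher in males, where 55.0% of all genes tested were called (30.6% lower and 24.4% higher). Another fit added scores of adipocyte, macrophage, erythroid and Schwann cell markers and of the genes Myh7 and Myh2. In it 20 were called lower and 6 higher, where 24.4% and 22.1% of all genes were. By limma on the VST score, which took in all 220, 46 were lower and 12 higher, where 29.2% and 23% of all genes were. A difference of at least 1.5-fold was called in 11 (7.05%), against 5.3% of all genes. Whether such a difference lies in the number of cells of a type or in the RNA of each cell cannot be told apart in whole muscle.

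Vamp7-ps, a copy on chromosome 2 of the gene of a vesicle fusion protein, was lower in males with the smallest adjusted p. In females it ran from 0.261 through 0.740 to 1.89 CPM and in males from 0.207 through 0.472 to 1.46 CPM, a log2 difference of -0.69 ± 0.05 (SE; edgeR adjusted p = 3.29e-31). The ranges overlapped widely and the medians differed. It shared no stretch of 100 bases with another measured gene.

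Rps18-ps2, a copy of a small-subunit gene that also shared no such stretch, fell most. It had a median of 0.082 CPM in females and 0.012 CPM in males, with highest values of 0.771 and 0.305 CPM, and a log2 difference of -1.97 ± 0.17 (edgeR adjusted p = 3.07e-27). Its parent Rps18 differed by -0.15 (edgeR adjusted p = 2.18e-21). Tpt1-ps6, on the X chromosome, differed by -0.77 ± 0.14 (edgeR adjusted p = 4.63e-07) at medians of 0.087 and 0.057 CPM. Both lay near the floor of detection in many animals.

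Apoo-ps, a copy of an apolipoprotein O gene that matched its parent in every stretch, ran in females from 0.185 through 8.12 to 71.2 CPM and in males up to 39.1 CPM with a median of 5.46, a log2 difference of -0.73 ± 0.12 (edgeR adjusted p = 4.61e-09). Apoo itself differed the other way, by 0.10 (edgeR adjusted p = 0.000527), and the sum of both by 0.00 (edgeR adjusted p = 0.943). H2-Ea-ps, a polymorphic class II histocompatibility gene, had medians of 1.5 CPM in females and 1.04 CPM in males and differed by -0.83 ± 0.22 (edgeR adjusted p = 0.000418). Its highest values were 44.2 CPM in a female and 14.5 CPM in a male.

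Rbm3-ps, a copy of a cold-inducible RNA-binding protein gene, differed by -0.85 ± 0.22 (edgeR adjusted p = 0.000305), although the medians were 0.037 CPM in females and 0.039 CPM in males. At least 1 CPM was reached in 11 females and 4 males. Marker genes of adipocytes summed to a median of 59.9 CPM in females and 46.9 CPM in males. Those of Schwann cells summed to 112 and 98.1 CPM and those of erythroid cells to 128 and 156 CPM. Scores of these lists, of macrophages and of the genes Myh7 and Myh2 were added to the fit together. Which of them mattered was not tested. With them the difference of Rbm3-ps was -0.29 (edgeR adjusted p = 0.442). Its parent Rbm3 was higher in males by 0.51 (edgeR adjusted p = 5e-34). Pisd-ps1 and Pisd-ps2 were lower in males by 0.34 ± 0.05 and 0.32 ± 0.05 on the log2 scale, as was Pisd itself by 0.08 (edgeR adjusted p = 3.75e-10, 4.08e-10 and 6.9e-05).

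Of the 8 that were higher in males, Amd-ps4, an S-adenosylmethionine decarboxylase copy on chromosome 4, rose most. It had medians of 0.055 CPM in females and 0.258 CPM in males, with highest values of 59.5 and 209.5 CPM, and a log2 difference of 2.43 ± 0.33 (edgeR adjusted p = 7.79e-12). It reached 1 CPM in 38 females and 47 males. Rps2-ps10, which overlaps Pde6a on the other strand, differed by 1.07 ± 0.15 (edgeR adjusted p = 8.51e-11) although its medians were 0.986 CPM in females and 0.933 CPM in males. By limma on the VST score the difference was 0.15 and missed the threshold (adjusted p = 0.0748). No female was above 9.86 CPM, and males reached 55.7 CPM. Smarca5-ps (0.49 ± 0.13, edgeR adjusted p = 0.000506) and Pabpc1l2b-ps (0.44 ± 0.16, edgeR adjusted p = 0.0105) had medians of 0.058 to 0.074 CPM in males.

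Ybx1-ps2, a copy of a cold-shock domain protein gene, was the remaining rise among the 5 largest (0.78 ± 0.21, edgeR adjusted p = 0.000608). A male of generation 18 held 16.2 CPM, and the next highest of all animals held 0.356 CPM. When the library with the highest value of each of the 14 pseudogenes with the largest calls was left out, the difference of Ybx1-ps2 was 0.14 with an edgeR adjusted p of 0.503. In the same fit the other 4 largest rises and the 5 largest falls were still called. By limma on the VST score Rbm3-ps (adjusted p = 0.142), Ybx1-ps2 (0.217) and Rps2-ps10 were not.

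The parents were called for sex more often when the counts of their pseudogenes were added. Of the 105, 61 were called alone and 72 in sum, 60 of them in both, where 55.0% of all genes tested were called. Among the 44 parents that encode ribosomal proteins, 30 were lower in males alone and 39 in sum, and none was higher, where 30.6% of all genes tested were lower. Rpl19 differed by -0.13 alone with an edgeR adjusted p of 0.503, and its sum with Rpl19-ps11 by -0.12 with an edgeR adjusted p of 3.64e-21. The median difference over these 44 was -0.11 alone and -0.12 in sum, where the median over all genes tested was -0.01, and -0.05 when libraries were scaled by total count alone. The sums were chosen after the data had been seen.

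Few pseudogenes differed between generations. The test called 5 of the 156 (3.21%), against 7.56% of all genes. Rpl17-ps10 had a fitted range of 2.06 on the log2 scale between generations (edgeR adjusted p = 1.21e-06). Its median was 0.156 CPM, 15 animals reached 1 CPM and none of these was of generation 18. The highest, at 19.4 CPM, was a library labelled female that went against its label, and without it and the other highest libraries named below the range was 2.08 (edgeR adjusted p = 1.8e-06). By limma on the VST score its range was 0.13 and missed the threshold (adjusted p = 0.801). Btnl7-ps, a butyrophilin-like gene, had a range of 0.46 (edgeR adjusted p = 0.0172) and was at least 1 CPM in 46 females and 17 males. It missed the threshold with marker scores added (edgeR adjusted p = 0.0629) and by limma (0.0813).

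The other 3 were high in only 1 or 2 animals. Ybx1-ps2 (range 2.08) was high in the male described above. Rpl7a-ps5 (range 1.53) was at 5.45 CPM in a male of generation 19 and at 4.24 CPM in a female of generation 18, and nowhere else above 0.341 CPM. Vdac3-ps1 (range 0.53), a copy of a mitochondrial channel gene, was at 14.1 CPM in a male of generation 17, and the next highest was 1.502 CPM. Without the highest library of each, the adjusted p of edgeR was 0.997 for Ybx1-ps2, 0.721 for Vdac3-ps1 and 0.00909 for Rpl7a-ps5, in which the second of the high animals was kept. By limma on the VST score none of these 3 was called.

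A sex difference that depended on generation was called in 5 of the 156 (3.21%), against 0.531% of all genes, by edgeR's test of the interaction. They were Rpl17-ps10, Ybx1-ps2, Rpl7a-ps5, Rps2-ps10 and Vdac3-ps1, 4 of which also stood among the calls for generation. Without the highest library of each of the 14 pseudogenes only Rpl17-ps10 (edgeR adjusted p = 0.00116) and Rps2-ps10 (0.0219) were still called. With the library block added Rps2-ps10 was not called (span 1.46, edgeR adjusted p = 0.135), and by limma on the VST score none of the 5 was. In Rps2-ps10 the highest female value was 9.86 CPM in generation 17 and 3.20 CPM in generation 19, and the highest male values were 22.9 and 55.7 CPM in the same generations. Its medians lay between 0.868 and 1.14 CPM in all 10 groups of sex and generation, so the groups differed in their few highest animals and not in their typical level.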

How the data were processed

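RNA-seq libraries from skeletal muscle of 474 Diversity Outbred mice were analysed from 2 deposited gene tables. The authors placed reads on a transcriptome that combines the founder strains with GBRS and EMASE and deposited expected counts, which need not be whole because a read is divided between the places it fits. They also deposited a variance-stabilised score (VST) made with DESeq2. Their methods describe a step that takes out batch effects, and whether the deposited score had it is not given in the sources used here. They also filtered genes with few reads. The submitters' notes name the build GRCm38. Versions, the transcript release and the use of strand are not given in the sources used here. Starts of 99.5% of genes equalled those of GENCODE M21, which gave types and sequences.

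Sex and the generation number were read from library titles. The members and gene lists were chosen with earlier results of these data known. Nothing in the labels describes batches, and blocks of 96 library numbers stood in for them. Animals are the replicates, and total counts of 35.9 to 165.7 M set the precision. Levels (CPM) are counts scaled to library size with TMM factors.

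Expected counts were rounded and tested with edgeR 4.0.16 (R 4.3.3) by the quasi-likelihood test with filterByExpr (minimum count 10), TMM scaling and Benjamini-Hochberg adjustment over 18823 genes. Simulated counts were drawn with a common dispersion for all genes. In them the sex test recovered 88% of genes changed by 0.25 on the log2 scale and 100% of those changed by 0.5 or more. These shares do not carry over to pseudogenes that varied more between animals. Alternatives used limma 3.58.1, DESeq2 1.42.0, other scaling and filters, library blocks, marker scores and fewer libraries. Correlations used 100000 permutations (numpy 2.4.6 and numba 0.67.0), with ranks from scipy 1.17.1. Sequence shared between genes was counted as exact stretches of 100 bases, the read length given in the study's methods, where both reads of a pair were placed singly. Named with values were the 6 highest members, the 6 most variable, all with a gap, the 5 largest rises and falls for sex, the 5 largest generation calls, all interaction calls, and the 6 highest and 4 lowest correlations with the parent. Vamp7-ps, Pisd-ps1 and Pisd-ps2 in the sex comparison and the 4 copies of Rpl35a were named after their values were seen.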

Additional observations from a re-analysis of the deposited data

Results flagged for a closer look

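The sex difference depended on generation, by edgeR's interaction test, in 5 pseudogenes. The fitted sex difference (log2) spanned 3.85 between generations in Rpl17-ps10, 3.63 in Ybx1-ps2, 2.53 in Rpl7a-ps5, 2.00 in Rps2-ps10 and 1.14 in Vdac3-ps1. At least 1 CPM was reached by 15 animals in Rpl17-ps10, by 1 in Ybx1-ps2, by 2 in Rpl7a-ps5 and by 2 in Vdac3-ps1, and by many in Rps2-ps10 (116 females and 105 males). Without the highest library of each of 14 pseudogenes the span was 3.50 in Rpl17-ps10 and 1.81 in Rps2-ps10, which were still called, and 0.93, 2.02 and 0.61 in Ybx1-ps2, Rpl7a-ps5 and Vdac3-ps1, which were not (edgeR adjusted p = 1.00, 0.0868 and 0.847). With the library block added the call of Rps2-ps10 was lost (span 1.46, edgeR adjusted p = 0.135), and by limma on the VST score none of the 5 was called.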

How the results depend on the processing

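The number called higher in males was 8, 5 with scaling by total count alone, 13 with no filter on low counts and 6 with marker scores. The number called lower was 30, 20 with marker scores and 46 with limma on the VST score, a fit that also took in all 220 members where edgeR tested 156 and in which 29.2% of all genes were lower. The 5 generation calls became 8 with no filter, 1 with limma, 3 with marker scores and 3 without the highest library of each of 14 members. The 5 interaction calls became 2 with the library block (Rpl17-ps10 and Ybx1-ps2), 2 without those highest libraries and 0 with limma. An unadjusted interaction p under 0.05 was seen in 11 of 220 members by limma, 11 of 156 by edgeR and 13 of 156 by DESeq2. After adjustment DESeq2 called 5. Shares of all genes called for generation or the interaction were counted in the main fit alone. The 19 gaps (0.611% of all genes) became 29 with a step of 0.25 (1.11%) and 40 (2.38%) on log2 CPM with a prior count of 2, a scale on which the median SD was 0.906 instead of 0.219 (over all genes 0.452 and 0.201). The cause was not tested. Leaving out the highest libraries, the sums with the parent and the pairs without steps were chosen after the data had been seen. Without the 5 libraries that go against their label 19 gaps were counted, 8 members were called higher and 27 lower in males, 6 were called for generation and 5 for the interaction, and 32 correlations with the parent were negative and 37 positive. Over 30 named values and 240 repeats of them, 211 stayed on their side of the threshold, 29 lost the call and none reversed. No paired analysis was possible because each animal gave 1 library and groups share no replicate number. Expected counts limit what can be said of copies that share sequence.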
